A study of Canis lupus familiaris with 6 samples.

Results

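The 48 cytosolic ribosomal protein genes described here were chosen by name. They were the genes whose symbol in the array design is RPL or RPS followed directly by a number. The suffixes A, X, L and L1 and the stalk proteins P0 to P2 were allowed, and the RPS6K kinases were left out. The design held 89 probes for these 48 genes among 43603 non-control probes with 34378 gene names, and each gene was represented by its brightest probe over the 6 arrays. By their letters alone, 30 genes (RPL) were assigned to the large ribosomal subunit and 18 (RPS) to the small subunit. The 30 include the paralogs RPL3L, RPL7L1 and RPL22L1. All 48 representative probes were well above background on all 6 arrays, so no member was lost to the filter on dim probes, which left 26623 probes for testing. RPL5, RPL11, RPLP1, RPLP2, RPS6 and RPS19 were not among the symbols of the design and have no value under the naming rule.

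The cytosolic ribosome builds proteins from messenger RNA. Its small subunit carries the decoding centre, its large subunit forms peptide bonds, and both are assembled in the nucleolus from ribosomal RNA and a set of ribosomal proteins made in near equal amounts. The messenger RNAs of these proteins begin with a pyrimidine tract through which the mTORC1 kinase controls their translation, so that their protein output can change without a change in the transcript. They belong to the most abundant transcripts of growing cells, kidney epithelium included.

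The arrays addressed how cells with active Ras and stabilised β-catenin differ when cells with stabilised β-catenin alone surround them. All 6 samples were RNA of MDCK cells, a dog kidney epithelial line, that carried both MDCK-pTR GFP-RasV12, a GFP-tagged active Ras switched on by tetracycline, and mCherry-β-catenin Δ131, a β-catenin without its first 131 residues that escapes degradation and is driven by the EF1 promoter. These β-cat ΔN/RasV12 cells were kept in tetracycline for 24 h either by themselves (single culture, 3 arrays) or among 10 β-cat ΔN cells without RasV12 per RasV12 cell (mix culture, 3 arrays), and GFP-positive cells were then collected by flow cytometry, the single cultures included. Both groups therefore carried the same 2 introduced proteins, and no untransformed culture was among the arrays. The labels do not say whether replicates were separate cultures, so p-values measure only the spread between these samples.

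Slide 1 carried the arrays of replicate 1 from both cultures, and slide 2 those of replicates 2 and 3. The share of spots well above background ran from 61.1% to 65.7%, and none was saturated. The slide differed for 47.2% of all tested probes and for 10 of the 48 ribosomal protein genes (20.8%). Values are therefore given within each slide as well. Of the epithelial markers, KRT18 had log2 levels of 7.61 to 8.48 and EPCAM of 6.17 to 6.78, with changes of -0.40 and -0.02 in mix culture, and 8 of 8 epithelial markers on the array were well above background on all 6 arrays. So were 4 of 6 leukocyte markers (CD68 at -0.03 to 0.29 among them), 1 of 5 mesenchymal markers (PDGFRB at -4.23 to -3.18) and 2 of 4 endothelial markers (PECAM1 at -0.98 to -0.45, and KDR). PTPRC, COL3A1, PDGFRA and TEK were not well above background on any array. Levels are log2 signals relative to the 75th percentile of the same array, changes are mix culture minus single culture on that log2 scale, and levels of different probes are not set against each other.

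Most ribosomal protein transcripts had slightly lower levels in mix culture than in single culture, by an amount that passed the test for no gene and that depended on the normalisation. The change was below 0 for 46 of 48 genes (95.8%), against 58.0% of all tested probes, and its median was -0.22 on the log2 scale (a fold of 0.86) against -0.05 for all tested probes. After quantile normalisation the median was -0.073 (all probes -0.033) and in the authors' table -0.078, and mix culture replicate 3 lay at a median of only -0.05 against the single cultures of its slide. Changes ran from -0.41 for RPS26 to 0.23 for RPS24, and 39 genes lay within 0.1 of the median. The median SE of a gene's change was 0.16. No ribosomal protein gene passed limma's test (0 of 48; lowest adjusted p = 0.637, and 0 at an unadjusted p under 0.05), where 0.871% of all probes passed and 8.73% had such an unadjusted p. With the slide as a block, 0 of 48 passed (lowest adjusted p = 0.0608 for RPS26 by limma), where 7.22% of all probes did, and 11 of 48 were lower at an unadjusted p under 0.05 (22.9%), against 14.6% of all probes. The share of all probes called lower in mix culture was 0.0676% without the block and 3.23% with it, and 3.87% were lower at an unadjusted p under 0.05 without it. No member was called with the replicate number as a block (5.29% of all probes were), on slide 2 alone (3.70%), by the methods' t-test after adjustment (0.0300%), after quantile normalisation (0.875%) or after normexp background correction (0.511%). In the fit without a block, the 95% interval of the change included 0 for all 48 genes. Its lower end was below -0.3 for 47 of them, RPS24 being the exception at -0.19. With the slide as a block, the interval lay below 0 for the 11 genes lower at an unadjusted p under 0.05. SEs, intervals and adjusted p-values of single genes are given without a block unless stated, so they include the spread between slides. For RPS26 the SE was 0.19 without a block and 0.11 with the slide as a block.

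**Figure D1:**
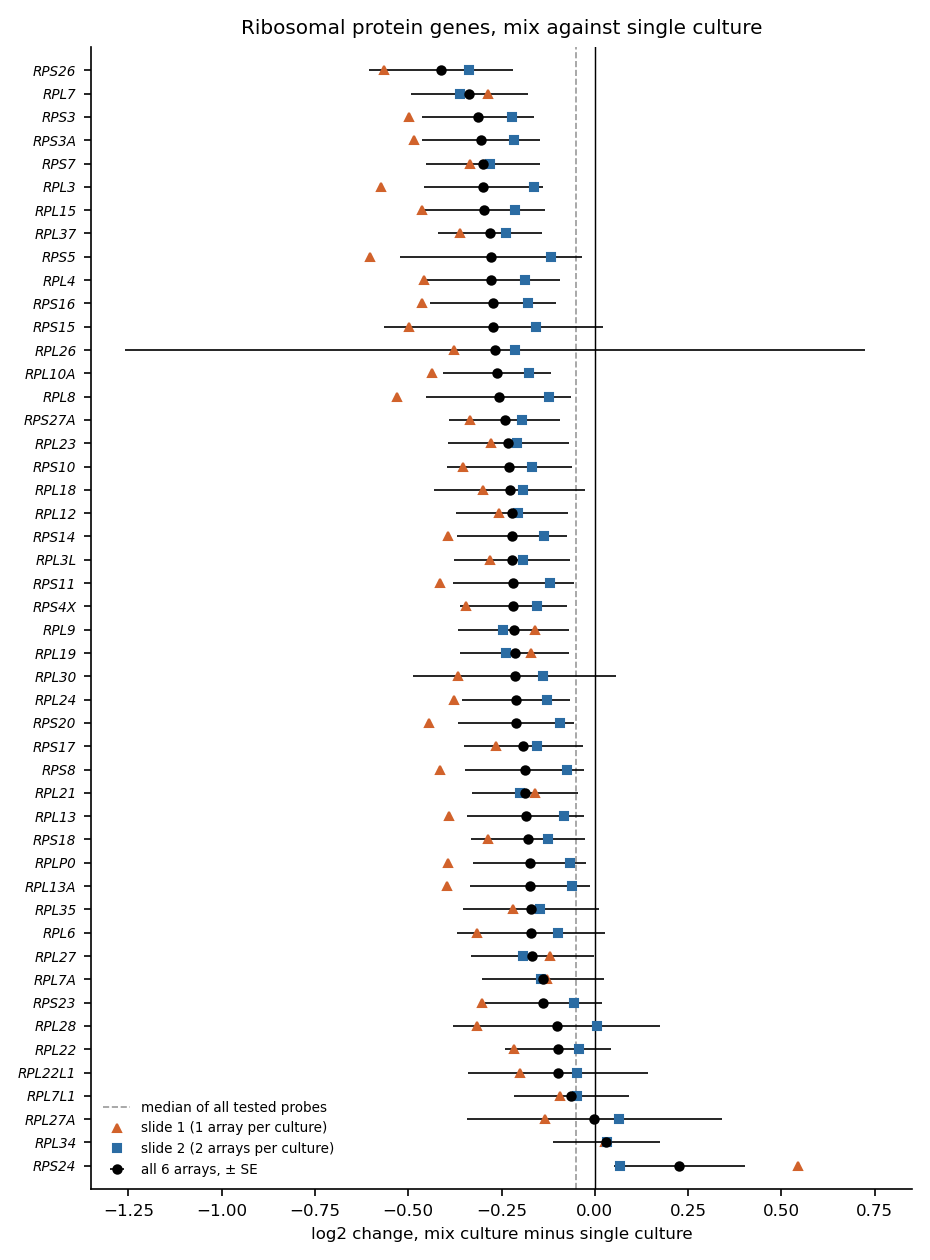
Log2 change of each of the 48 ribosomal protein genes between mix and single culture (x axis), sorted by the change over all 6 arrays (black circles, ± SE from limma). Triangles give slide 1 and squares slide 2, and the dashed line is the median of all tested probes at -0.05. 46 black circles lie left of 0, between -0.41 and -0.001, and 41 of the 48 triangles lie further left than the square of the same gene.

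The mix arrays differed in how far they departed from the single cultures. Within slide 1 the median change over the 48 genes was -0.34, and mix culture replicate 1 lay below single culture replicate 1 for 46 genes. Within slide 2 the median change was -0.15, of which mix culture replicate 2 carried the larger share. That array lay below the mean of the 2 single cultures of its slide by a median of -0.24 and below both of them for 44 of 48 genes, whereas mix culture replicate 3 lay at a median of -0.05 and below both for 28. The level was higher in mix culture replicate 3 than in mix culture replicate 2 for 48 of 48 genes, by a median of 0.15. The 2 single cultures of slide 2 differed by a median of 0.02. The spread between the mix arrays of slide 2 was thus as large as the median change within that slide. Lower levels on both slides were seen for 44 of 48 genes (91.7%), against 42.3% of all tested probes. In 6 genes, RPL7, RPL7A, RPL9, RPL19, RPL21 and RPL27, all of the large subunit, the level was lower by more on slide 2 than on slide 1. Across the 48 genes, the changes on the 2 slides had a Pearson correlation of 0.42 and a Spearman correlation of 0.18. Genes are not independent replicates, and this is a description alone.

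The 3 values of each culture did not overlap for 21 of the 48 genes (43.8%), each of them lower in mix culture. Among all tested probes 8.68% were separated in that direction and 7.83% in the other. These shares hold for levels relative to the 75th percentile, and no share for probes of like signal level is given. The brightest 2663 tested probes held 40 of the 48 genes, and the median change of all probes in that group was -0.12. After quantile normalisation the median change of the 48 genes was -0.073. These 21 genes comprised 11 of the 30 large subunit genes and 10 of the 18 small subunit genes. The median change was -0.21 for the large subunit and -0.23 for the small subunit.

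Signal level moved with the change. In all, 40 of the 48 genes were among the brightest 2663 tested probes (10 equal groups by level), and in that group the median change of all probes was -0.12, with 74.6% of probes below 0. The 5 groups in the middle of the range (groups 4 to 8) had medians between -0.03 and -0.01. Among the 100 brightest probes, the 10 ribosomal protein genes had a median change of -0.22 and the 89 probes of other genes one of -0.11, of which 82 were below 0. Among the probes that followed, down to rank 300, the medians were -0.21 for 22 ribosomal protein genes and -0.16 for 160 probes of other genes, and from there down to rank 1000 they were -0.25 for 8 ribosomal protein genes and -0.14 for 683 probes of other genes. Forcing the 6 arrays onto one signal distribution by quantile normalisation brought the median of the 48 genes to -0.07, against -0.03 for all probes, with 42 of 48 genes (87.5%) below 0 against 55.6% of all probes. RPS26 (-0.38) and RPL3 (-0.19) kept a negative change in that setting and RPS24 (0.22) a positive one, while RPL27A, RPL27, RPL7A and RPL28 turned positive at 0.00099, 0.0029, 0.019 and 0.051. How far the bright end of the signal range accounts for the lower ribosomal protein levels was not tested. Levels are relative to the 75th percentile of the same array, so they do not give the number of transcripts in a cell. They were measured in RNA pooled from many cells. Fewer ribosomal protein transcripts in each cell and fewer cells expressing them cannot be told apart.

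**Figure D2:**
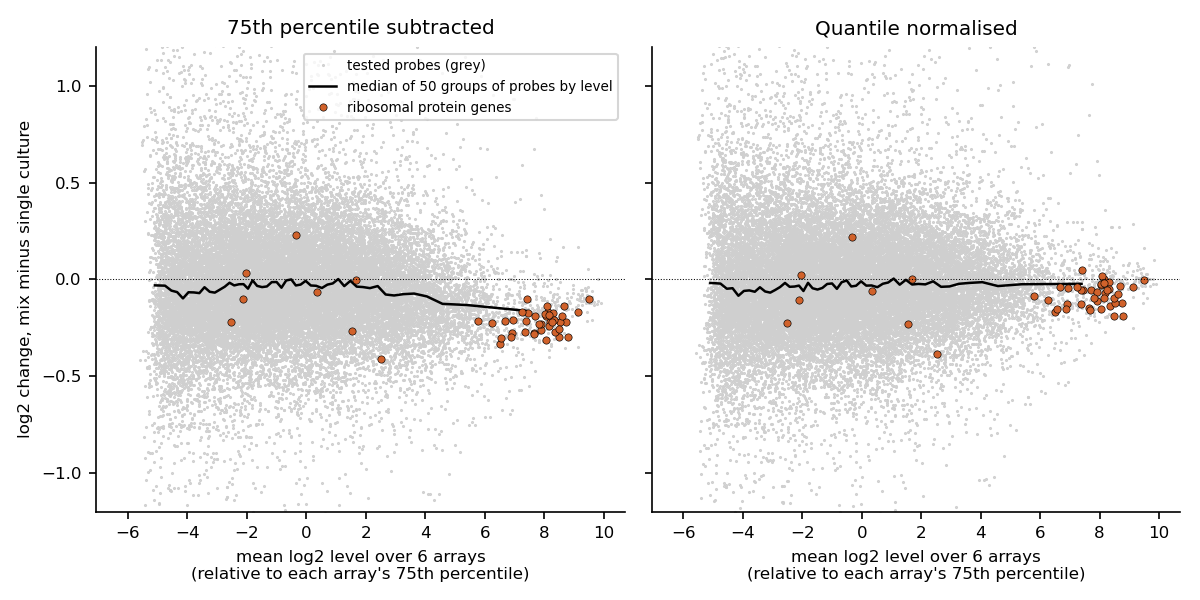
Log2 change of every tested probe (grey), and of the 48 ribosomal protein genes (orange), against the mean log2 level over 6 arrays, after subtracting each array's 75th percentile (left) and after quantile normalisation (right). The black line is the median of 50 equal groups of probes ordered by level, and points beyond ±1.2 on the y axis are not drawn. On the left the line dips at the bright end, where 40 of the 48 genes lie, and the median of the 48 genes is -0.22; on the right the line stays near 0 and the median is -0.07.

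In the large subunit, RPL7 had the largest change. RPL7 (chr29:21881467-21881526 on CanFam3.1, minus strand) encodes a protein that contacts the 5S ribosomal RNA region. Its log2 levels were 6.77, 6.64 and 6.61 in single culture and 6.48, 6.17 and 6.36 in mix culture. Every mix array was below every single array. The change was -0.34 ± 0.16 (SE, n = 3 against 3; 95% interval -0.71 to 0.03; adjusted p = 0.637 by limma), with -0.29 on slide 1 and -0.36 on slide 2.

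RPL3, which reaches toward the peptidyl transferase centre, had levels of 8.76, 8.52 and 8.67 in single culture and 8.19, 8.38 and 8.48 in mix culture. The groups did not overlap, although mix culture replicate 3 came close to the lowest single culture. The change was -0.30 ± 0.16 (SE), and it was -0.57 on slide 1 and -0.16 on slide 2. RPL15, which is wrapped in ribosomal RNA of the large subunit, had levels of 6.97, 7.02 and 7.05 in single culture against 6.51, 6.73 and 6.91 in mix culture. Its single cultures were tightly grouped (SD 0.04) and its mix cultures were not (SD 0.20), and the change was -0.30 ± 0.16 (SE). RPL37, a small zinc-binding protein, had levels of 7.804, 7.803 and 7.816 in single culture and 7.44, 7.55 and 7.59 in mix culture. With an SD of 0.0075 it had the tightest single cultures of the named genes, and its change was -0.28 ± 0.14 (SE; adjusted p = 0.681 by limma).

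RPLP0 forms the base of the stalk that recruits elongation factors. Its levels were 8.47, 8.35 and 8.35 in single culture and 8.08, 8.22 and 8.35 in mix culture, so mix culture replicate 3 reached the single cultures. The change was -0.17 ± 0.15 (SE), with -0.39 on slide 1 and -0.07 on slide 2. RPL13A, known outside the ribosome as a repressor of translation after interferon-γ, had levels of 7.73, 7.41 and 7.47 in single culture and 7.33, 7.28 and 7.47 in mix culture. These groups overlapped too, and the change was -0.17 ± 0.16 (SE). RPL35, at the rim of the exit tunnel, had one of the 3 brightest probes, with levels of 9.06, 9.35 and 9.25 against 8.84, 9.003 and 9.30, and its groups overlapped as well.

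RPL34 was 1 of the 2 genes with a change above 0. Its probe was among the 3 dimmest, at -2.02, -2.13 and -1.97 in single culture and -1.996, -2.10 and -1.95 in mix culture. The cultures were indistinguishable, with a change of 0.03 ± 0.14 (SE; 95% interval -0.31 to 0.37). RPL27A stood at -0.001 ± 0.34 (SE), a mean level of 1.68 in both cultures.

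In the small subunit, RPS26 had the largest change of all 48 genes. RPS26 (chr10:364464-364523, plus strand) lies at the messenger RNA exit channel next to the sequence just upstream of the start codon. Its levels were 3.04, 2.60 and 2.53 in single culture and 2.48, 2.17 and 2.29 in mix culture. The groups did not overlap, the change was -0.41 ± 0.19 (SE; fold 0.751; 95% interval -0.87 to 0.04; adjusted p = 0.639 by limma), and it was -0.57 on slide 1 and -0.34 on slide 2. It was the only member called in any setting that was run. The authors' value table, tested with limma, gave RPS26 a change of -0.39 (adjusted p = 0.0169), in a setting where 15.3% of all probes were called.

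RPS3, which lines the channel by which messenger RNA enters and is also known as a partner of the NF-κB subunit p65, had levels of 8.35, 8.09 and 8.18 in single culture and 7.85, 7.86 and 7.97 in mix culture. The mix cultures lay together below the single cultures, with a change of -0.31 ± 0.15 (SE; adjusted p = 0.651 by limma). RPS3A, a neighbour of the exit channel, had levels of 6.91, 6.59 and 6.65 against 6.43, 6.32 and 6.48, and its change was also -0.31 ± 0.16 (SE). RPS7, an assembly protein of the small subunit that also binds MDM2, had levels of 9.07, 8.87 and 8.88 in single culture and 8.74, 8.52 and 8.66 in mix culture. Its change of -0.30 ± 0.15 (SE) was alike on the slides, at -0.34 and -0.28. In all 3 genes the groups were separate.

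RPS24, which is needed to mature the small subunit's ribosomal RNA and is mutated in Diamond-Blackfan anaemia, had the highest change of the 48 genes. It rested on 1 probe, in group 6 of the 10 groups by level, whereas the brightest group held 40 of the 48 genes. Its levels were -0.67, -0.48 and -0.19 in single culture and -0.12, -0.31 and -0.23 in mix culture. One single culture lay above all but one of the mix cultures, so the groups overlapped, and the change of 0.23 ± 0.18 (SE; adjusted p = 0.842 by limma) was 0.54 on slide 1 and 0.07 on slide 2. RPS27A, made as a fusion with ubiquitin, followed the majority at -0.24 ± 0.15 (SE).

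**Figure D3:**
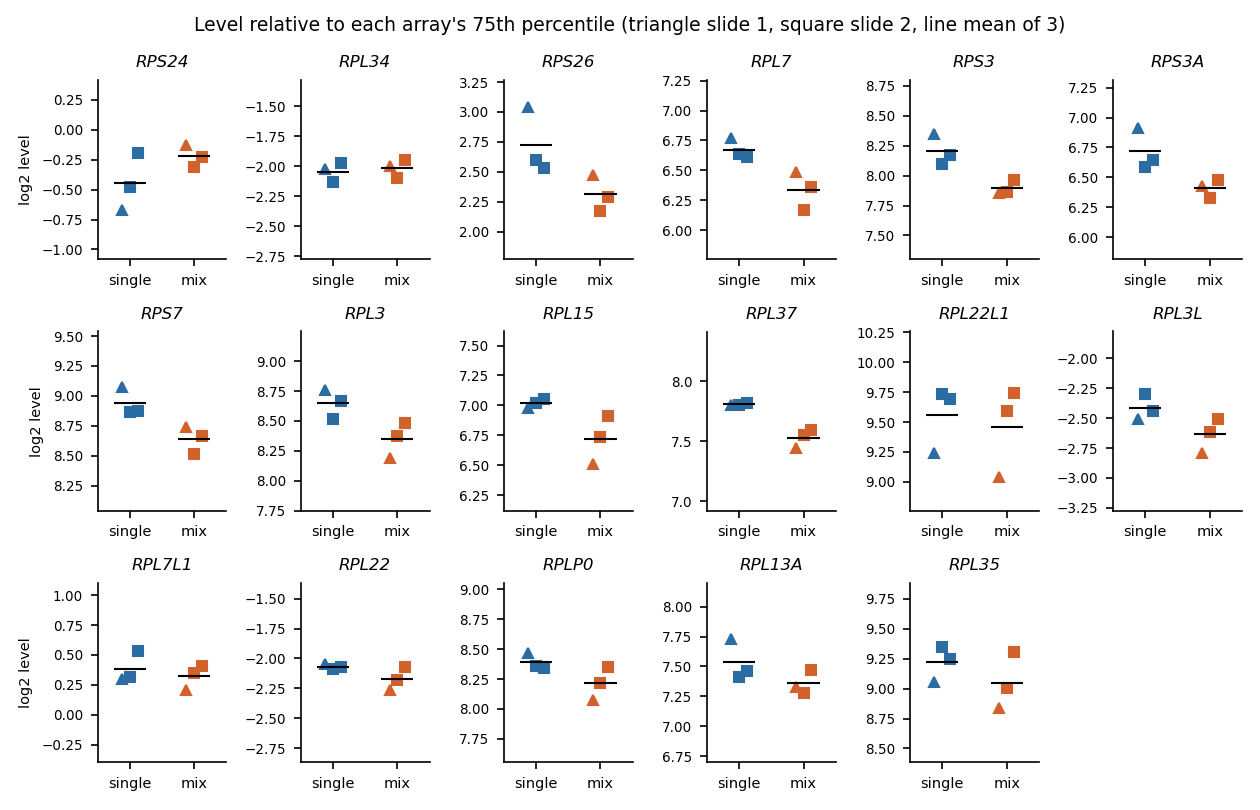
Log2 levels of 17 ribosomal protein genes named by rule on each of the 6 arrays, relative to the array's 75th percentile; triangles are slide 1, squares slide 2, and the line is the mean of 3 arrays. Every panel spans the same range on its y axis. RPS26, RPL7, RPS3, RPS3A, RPS7, RPL3, RPL15, RPL37 and RPL3L show no overlap between cultures, and mix culture is higher on average for RPS24 and RPL34 alone. For RPL3L the nearest values are almost equal, at -2.509 in mix culture and -2.506 in single culture.

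The 3 paralogs in the set were compared with their parents for the change alone. RPL3L, a muscle-restricted counterpart of RPL3, had a probe among the 3 dimmest, with levels of -2.506, -2.30 and -2.44 in single culture and -2.79, -2.61 and -2.509 in mix culture. The groups were thus barely separate, and those of its second probe overlapped. The change of the brighter RPL3L probe was -0.22 ± 0.16 (SE), next to -0.30 ± 0.16 (SE) for RPL3. RPL7L1, a nucleolar factor in large subunit assembly, had levels of 0.30, 0.32 and 0.54 against 0.21, 0.35 and 0.41 and a change of -0.06 ± 0.15 (SE), next to -0.34 ± 0.16 (SE) for RPL7. RPL22L1 had the brightest probe of all members. Its levels were 9.24, 9.74 and 9.69 in single culture and 9.04, 9.59 and 9.74 in mix culture. The slides were further apart than the cultures, at -0.55 for slide 1 against slide 2 (adjusted p = 0.00534 by limma). The change was -0.10 ± 0.24 (SE), and it was 0.11 when mix culture replicate 1 was left out. RPL22, its parent and a tumour suppressor in T cells, had a dim probe and a change of -0.10 ± 0.14 (SE). The differences between paralogs and parents were not tested.

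Further probes of the same genes gave like changes between cultures but unlike differences between slides. For 27 genes more than 1 probe was tested, 68 probes in all, and in 26 of these genes every probe was lower in mix culture. These probes are not independent readings. They read the same RNA on the same arrays, and 8 pairs in 7 genes share 14 to 55 of their 60 bases. The range of the change within a gene had a median of 0.05 and reached 0.40 in RPL15, whose 5 probes ran from -0.37 to 0.03. The range of the slide difference within a gene had a median of 0.33 and reached 2.76. RPS3 shows the contrast with 4 probes, of which 1 pair shares 48 bases. Their changes between cultures lay between -0.41 and -0.28 and their slide differences between -0.31 and 0.61. Over the 89 probes, 86 were lower in mix culture, with a median of -0.22, and 0 were called, where 0.871% of all probes were. RPS18 shows a limit of the design. Its brightest probe lies on chromosome 12 and its second probe is placed on chromosome 17. Ribosomal protein genes have many processed copies in mammalian genomes, and which copies a probe reads was not examined here.

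The probe sequences show what the signals rest on, and stretches of 30 bases are given for the probes that bear on these comparisons. AATAAA, the letters of the common polyadenylation signal, was present in the brightest probe of 17 of the 48 genes (35.4%) and in 8.67% of all probes on the array. Among tested probes alone, AATAAA was present in 25 of the 89 probes of these genes (28.1%) and in 9.89% of all. It was searched on the probe strand only, and a match of these letters is no proof of a site in use. It stands in capitals in the brightest probes of RPL3 and RPS3 and in a dimmer probe of RPLP0, while the brightest RPLP0 probe, which starts upstream of the dimmer one in the same transcript although the files give both the same lower coordinate, is shown by its first bases.
RPL3 probe at chr10:25745422-25745481, bases 31 to 60: gctggtgggatctcAATAAAaattattttc
RPS3 probe at chr21:23180859-23180918, bases 31 to 60: gtgaagacctttAATAAAatatttgagtaa
RPLP0 dimmer probe at chr26:16148467-16148526, bases 29 to 58: gtgaaacaaggaAATAAAggcttacttctc
RPLP0 brightest probe at chr26:16148467-16148512, bases 1 to 30: cgaggatatgggaatttggtctctttgact
A second RPS3 probe holds the same 30 bases at its positions 19 to 48, and it had a change of -0.31 between cultures as the first did. The RPLP0 probes had changes of -0.20 (dimmer) and -0.17 (brightest), but slide differences of 0.62 and -0.04.

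A pair of dimmer RPL22L1 probes lie next to each other in the transcript, share a stretch of 44 bases and differ at 1 of them. Counted from 1 at the 5′ end of the first probe, the difference is A49C, and it stands in capitals below.
RPL22L1 upstream probe at chr34:35299043-35299102: taagaaaataaatgtagcAtgcaaaagaaa
RPL22L1 downstream probe at chr34:35299027-35299086: taagaaaataaatgtagcCtgcaaaagaaa
The first probe had levels of 3.91, 4.18 and 4.49 in single culture and 4.03, 3.76 and 4.11 in mix culture, a slide difference of -0.17. The second had levels of 1.89, -0.20 and 0.11 in single culture and 1.99, -0.64 and -0.39 in mix culture, a slide difference of 2.21. Slide 1 was thus the brighter for one probe and not for the other, although most of their letters coincide. Between cultures the changes were -0.23 and -0.28, but on slide 1 alone they were 0.13 and 0.10.

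The slide difference moved with the base composition of the probe, and the change between cultures of the ribosomal protein probes did not do so visibly. Over the 89 probes, GC content and the slide difference had a Pearson correlation of -0.42 and a Spearman correlation of -0.63, and over all tested probes they had -0.40 and -0.47. For the change between cultures these correlations were -0.04 and -0.03 over the 89 probes and -0.10 and -0.14 over all tested probes. In the 30 probes of lowest GC content (35% to 40%) the median slide difference was 0.14, and in the 30 of highest (45% to 60%) it was -0.27, so that GC-rich probes were dimmer on slide 1. The same 2 groups had median changes between cultures of -0.22 and -0.23. Removing the median of each GC content from every array left the median change of the 48 genes at -0.21. A dimmer RPL3L probe, at 53.3% GC, stood outside this pattern with a slide difference of 1.60. So did RPL26, at the rim of the exit tunnel. At 45% GC the RPL26 levels were 3.57 and 3.19 on the single and mix arrays of slide 1 and 0.72, 0.73, 0.32 and 0.71 on slide 2, a slide difference of 2.76 (adjusted p = 3.31e-05 by limma). Its change between cultures was -0.38 on slide 1 and -0.21 on slide 2, close to that of the other genes, but with an SE of 0.99 when slides were pooled.

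**Figure D4:**
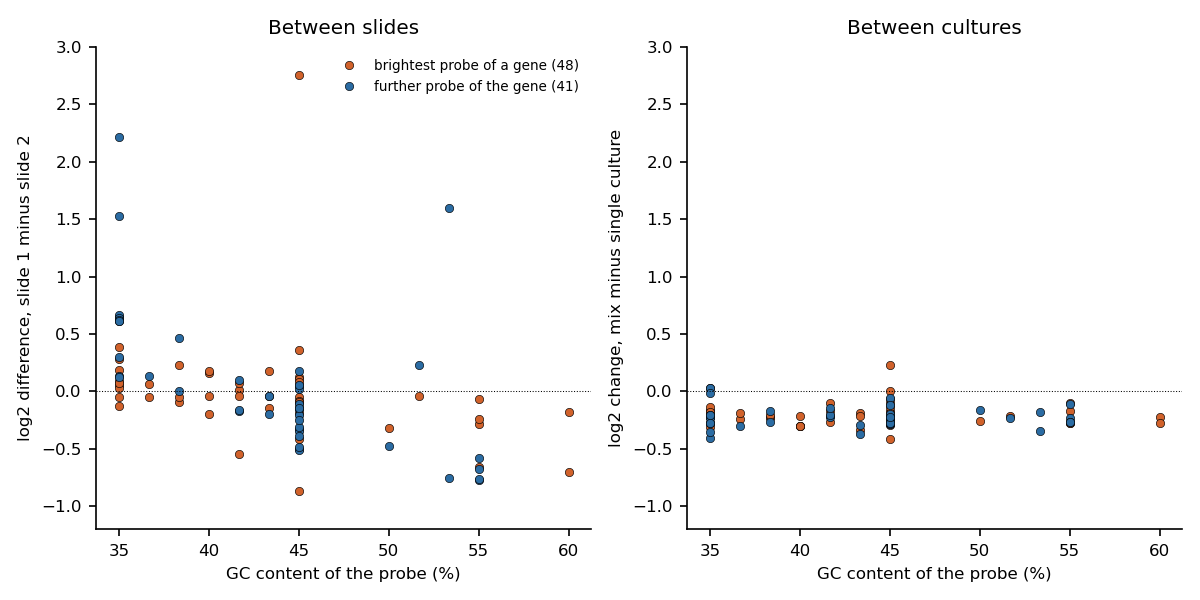
Log2 difference between slides (left) and between cultures (right) for the 89 probes of the ribosomal protein genes, against the GC content of the probe in percent; orange marks the brightest probe of each gene and blue its further probes. The slide difference drops from left to right (Spearman correlation -0.63), with RPL26 at 2.76 on top, whereas the change between cultures stays near -0.22.

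Most probes of other ribosomal components were below 0 as well. FAU, which encodes a small subunit protein fused to a ubiquitin-like one, had a change of -0.23, RPSA one of -0.15 and the scaffold GNB2L1 (RACK1) one of -0.43, and 0 of these 3 passed (lowest adjusted p = 0.669 by limma). A further 18 probes carried no ribosomal protein symbol but a description naming a mammalian cytosolic ribosomal protein. They were found after the values of the 48 genes had been seen. Of the 14 tested, 12 were lower and the median change was -0.24. The 2 higher probes, on each slide too, were described as RPL26 (0.32) and RPL3 (0.26). Some of the 14, these 2 included, were thus described as proteins of genes among the 48. The lower probes included 2 each for the stalk proteins P1 (-0.33 and -0.33) and P2 (-0.31 and -0.29), which bind RPLP0.

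The lists of other parts of the translation apparatus had medians on either side of that of the 48 genes, and differences between lists were not tested. Of the translation elongation list, 9 of 10 tested genes were below 0, with a median of -0.26. EEF2, which drives translocation, had levels of 8.01, 7.99 and 7.99 in single culture and 7.42, 7.71 and 7.88 in mix culture, a change of -0.33 ± 0.17 (SE). Of 37 initiation factors, 29 were below 0, with a median of -0.17, and of 39 ribosome biogenesis genes, 31 were, with a median of -0.13. Of 62 mitochondrial ribosomal protein genes, a separate set that serves the mitochondrial genome, 49 (79.0%) were below 0, with a median of -0.11. The mTORC1 and S6 kinase list lay on the other side, with 7 of 16 below 0 and a median of 0.05. The slides differed in sign for this list. Slide 1 had a median of -0.03 with 9 of 16 below 0, and slide 2 one of 0.05 with 6 of 16. No gene of these 5 lists passed limma's test without a block (0 called; 0.871% of all probes). At an unadjusted p under 0.05, 3 biogenesis genes, 1 initiation factor gene and EEF2K were lower and 1 initiation factor gene was higher.

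With the slide as a block, limma called 4 genes of these lists, each of them lower in mix culture, where 3.23% of all probes were called lower. They were 2 of 16 genes of the mTORC1 list, 1 of 37 initiation factors and 1 of 39 ribosome biogenesis genes. Of the elongation list 0 of 10 were called, and of the mitochondrial ribosomal protein genes 0 of 62. EEF2K, the kinase that inhibits EEF2, had levels of 1.00, 0.59 and 0.78 in single culture and 0.03, 0.10 and 0.17 in mix culture, a change of -0.69 (adjusted p = 0.0171). EIF4EBP1, the mTORC1-controlled repressor of cap-dependent initiation, changed by -0.56 (adjusted p = 0.0427). BOP1, a processing factor of the large subunit, changed by -0.71 (adjusted p = 0.0293), and EIF2S2, a subunit of the initiator tRNA carrier eIF2, changed by -0.43 (adjusted p = 0.0426). The epithelial cadherin CDH1 was called as well, at -0.47 (adjusted p = 0.0442). Of the 8 epithelial markers tested, 7 were below 0 and 1 was above it, at 0.47. On slide 2 alone, 4 of the 8 were below 0. With the replicate number as a block, EEF2K (adjusted p = 0.0299 by limma) and BOP1 (0.0418) were called, whereas EIF2S2 (0.0832), EIF4EBP1 (0.0745) and CDH1 (0.0759) were not, and without a block none of the 5 was (0.176 to 0.814). The leukocyte, mesenchymal and endothelial marker lists had 0 called genes of the 8 tested, with or without the slide block.

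**Figure D5:**
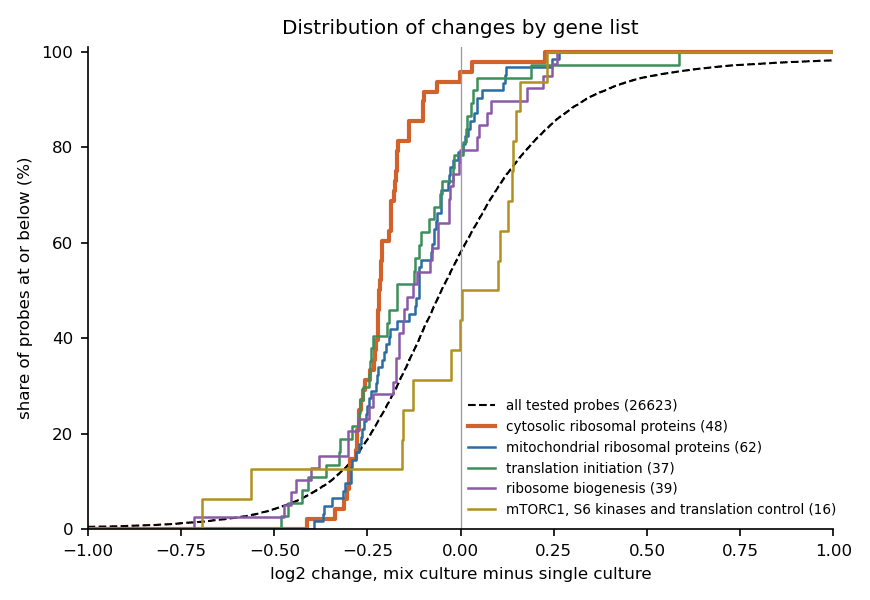
Cumulative share of genes (y axis, percent) at or below each log2 change between cultures (x axis), for the 48 cytosolic ribosomal protein genes, 4 other lists of the translation apparatus and all 26623 tested probes; values beyond ±1 are outside the plot. The curve of the cytosolic ribosomal proteins has 95.8% of genes below 0, and the mTORC1 list has a median of 0.05, to the right of that of all probes.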

How the data were processed

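RNA of 6 samples was hybridised to single-colour Agilent canine arrays, 1 array per sample. Scanner files deposited by the authors hold each spot's intensity, linear and unlogged. Agilent Feature Extraction (11.5.1.1 for slide 1, scanned at 3 µm, and 12.1.1.1 for slide 2, at 5 µm) had subtracted the background, per the file headers, and no scaling between arrays had been applied. A table of log2 values was deposited too, whose steps are not given in the sources used here. Its 2 columns for slide 1 sum to 0 at every tested probe, and its columns for mix culture replicates 2 and 3 correlated better with each other's scanner file (0.977 and 0.979) than with their own (0.465 and 0.433). Scale and direction follow the scanner files, and the table served as an alternative alone.

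Outlier spots (5 to 9 per array) and control spots were left out, spots of a probe were averaged as log2 signals, and levels were set relative to the 75th percentile of their array. A probe was tested when well above background on all 3 arrays of at least 1 group. Groups, taken from the sample titles, were compared by limma (version 3.58.1, run in R 4.3.3; two-sided, Benjamini-Hochberg over all tested probes, called at an adjusted p under 0.05), which was tested on simulated data. Probe positions are those of the files on CanFam3.1, and annotation of exons was not used. The number of arrays limits the precision.

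The members and gene lists were chosen with earlier results of these data known. The text names called members, the 8 largest changes in each direction, paralogs with their parents, RPLP0, RPL13A and RPS3 with 6 genes not in the design, the 3 brightest and 3 dimmest members, and called genes of the other lists. Parts of the gene lists are not reported here. Other genes were named after their values were seen. Same-numbered arrays deviated together from their group means (correlations 0.801, 0.530 and 0.572). Arrays of slide 2 with different numbers did so as much (0.632 and 0.610). Replicate numbers were taken to pair the arrays in the replicate block alone, and the main fit used neither pairing nor slide. Alternatives were other normalisations, the authors' table, slide and replicate blocks, single slides, the methods' t-test, other filters, all probes of a gene, and leaving out each array.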

Additional observations from a re-analysis of the deposited data

How the results depend on the processing

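In every setting the median change of the 48 ribosomal protein genes was negative, but its size depended on the normalisation. It was -0.22 as reported, -0.073 after quantile normalisation, -0.10 after normexp and quantile normalisation, -0.078 in the authors' table and -0.34 on slide 1 alone, and leaving out 1 array gave -0.27 to -0.18. The number of ribosomal protein genes called stayed 0 in all settings but the authors' table, which gave 1 (RPS26). That table is centred within each slide, which the fit does not count, and the cause was not tested. With the replicate number as a block 0 of the 48 were called (lowest adjusted p = 0.108 by limma); the block changed no call of a ribosomal protein gene. Over all probes, 232 calls became 1408 with the replicate block, 1459 with mix culture replicates 2 and 3 exchanged in it (chosen after seeing the data), 1923 with the slide as a block, 985 on slide 2 alone, 4077 in the authors' table, 136 with normexp, 142 when a probe had to exceed background on each of the 6 arrays, 8 by the methods' t-test after adjustment (2596 before it), and 86 to 244 when 1 array was left out. Single genes near 0 turned sign. RPL34 became -0.024 with normexp and ranged from -0.014 to 0.072 when 1 array was left out, RPL7L1 ranged from -0.11 to 0.013 and RPL22L1 from -0.26 to 0.11. The fewest calls came without mix culture replicate 3 (86), mix culture replicate 2 (92) and single culture replicate 3 (94). Slide 1 holds 1 array per culture and allows no test.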
